A study of Mus musculus with 6 samples.

Results

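The genes described here are 10 marker genes of Kupffer cells, the resident macrophages of the liver: Clec4f, Clec1b, Vsig4, Cd5l, Timd4, Marco, Cd163, Adgre1, Folr2 and Cd68. They were taken by symbol from the read count table of the series, where each of the 10 stood on 1 of the 56674 rows, and all 10 passed the filter on low counts that left 18043 genes for testing. Liver RNA came from C57BL/6 males kept for 71 weeks on chow containing PE-MP, a polyethylene microplastic, in 3 libraries, or on normal chow, also in 3 libraries. All 6 libraries are whole liver RNA, and the labels give no dose of PE-MP, no cage and no batch. The labels number the libraries as replicates without naming the animal behind each, so p-values measure the spread between libraries, which may be technical. The study asked whether long exposure to the plastic alters hepatic gene expression.

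Kupffer cells line the sinusoids, where they take up particles, microbes, ageing red cells and platelets from portal blood. Their identity depends on signals from the neighbouring endothelial and stellate cells, among them Notch, TGF-beta and BMP ligands, and on transcription factors such as LXR-alpha, encoded by Nr1h3, and Id3. In mice, Clec4f is largely restricted to Kupffer cells and Timd4 marks the long-lived, embryonically seeded ones, whereas Adgre1 and Cd68 are found in macrophages generally. In RNA of whole liver, fewer cells of a type and less RNA per cell cannot be told apart.

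PE-MP libraries 1, 2 and 3 held 88266936, 75176645 and 91898953 counts, and the normal chow libraries 75897165, 68357478 and 112566641. The members had between 74 and 6071 counts in a library. Levels below are CPM, counts scaled to a fixed library size after correction by TMM factors, unless another scale is named. Alb, the plasma protein made by hepatocytes, was abundant in each library of this liver series, at 5.68% to 6.15% of counts in PE-MP libraries and 4.18% to 5.40% in normal chow libraries. Other features of the libraries touch the results. Mitochondrially encoded rows took 9.71% to 10.1% of counts in PE-MP libraries and 14.9% to 16.4% in normal chow libraries. The ribosomal RNA row Rn18s-rs5 took 0.334% to 5.98% of counts in the PE-MP libraries, against 2.92%, 11.2% and 1.15% in normal chow libraries 1, 2 and 3.

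Levels of all 10 markers were on average higher in the PE-MP libraries, and no single marker passed the test over all genes. Log2 fold changes of PE-MP chow over normal chow ran from 0.17 for Folr2 to 2.01 for Marco, with a median of 0.70, beside a median of 0.018 over all genes tested. By edgeR with Benjamini-Hochberg adjustment over all genes, 0 of 10 members were higher at an adjusted p under 0.05, where 0.00554% of tested genes (1 gene) were, and 0 were lower, where 0.0% of genes were. At an unadjusted p under 0.05, 5 of 10 members were higher (Clec1b, Cd68, Vsig4, Timd4 and Clec4f), beside 9.1% of all tested genes. The libraries of the chows did not overlap, with PE-MP chow higher, for 6 of 10 members (those 5 and Cd163), beside 14.2% of all tested genes. DESeq2 called 4 of 10 members higher (Clec1b, Cd68, Vsig4 and Timd4), where it called 3.1% of genes higher, and limma-voom called 0 of 10, where it called 0.0333%. Without normal chow library 2, edgeR called 1 of 10, Clec1b, where it called 2.38% of genes higher. Over the 16 refitted alternatives of processing, the adjusted p of Cd68 ranged from 0.00818 to 0.388, that of Vsig4 from 0.0352 to 0.408, that of Timd4 from 0.0469 to 0.414 and that of Marco from 0.0731 to 0.697.

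**Figure D1:**
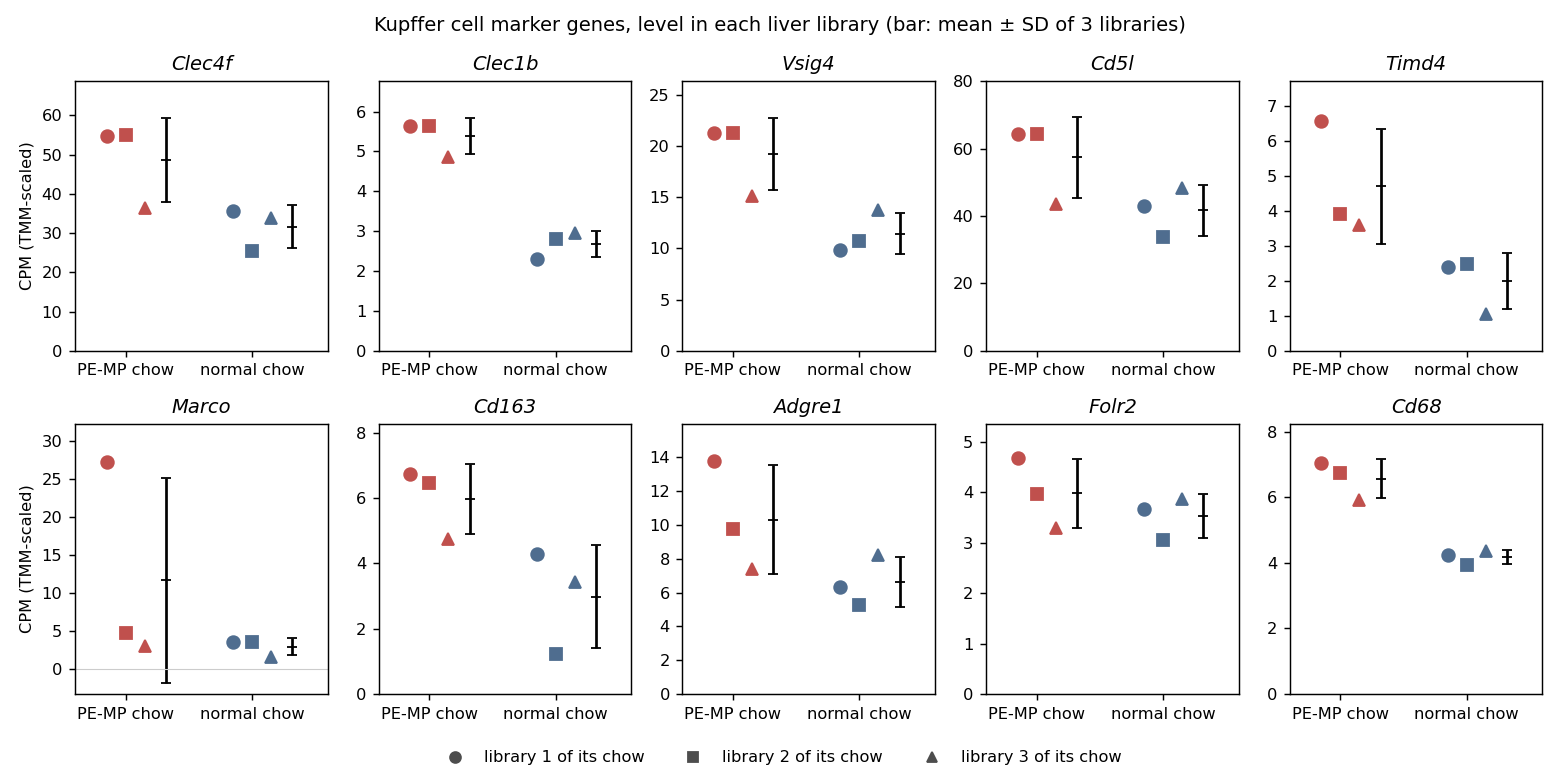
Levels of the 10 markers in each liver library in TMM-scaled CPM, with PE-MP chow left of normal chow; a symbol is 1 library, and bars are the mean and SD of 3. Clec1b, Vsig4, Cd68, Timd4, Clec4f and Cd163 show no overlap between chows, and Marco in PE-MP library 1, at 27.2 CPM, stands far above every other library.

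None of the 5 members with the smallest p passed the edgeR threshold, and a link between their DNA and their levels was not tested. The stretches before their transcription starts are shown as a description. Each has 250 bases, written 5′ to 3′ along the gene, from RefSeq on build GRCm38.p6, which is not the build GRCm39 named for the counts. They lie at chr6:129397047-129397296 (plus strand) for Clec1b, chr11:69666171-69666420 (minus strand) for Cd68, chrX:96293439-96293688 (minus strand) for Vsig4, chr11:46810549-46810798 (plus strand) for Timd4 and chr6:83656117-83656366 (minus strand) for Clec4f. Capitals mark the 6 letters GAGGAA, a core bound by the myeloid factor PU.1, or TGCTGA, a short element bound by MAF factors, or TCAGCA, which is TGCTGA on the other strand.
Clec1b: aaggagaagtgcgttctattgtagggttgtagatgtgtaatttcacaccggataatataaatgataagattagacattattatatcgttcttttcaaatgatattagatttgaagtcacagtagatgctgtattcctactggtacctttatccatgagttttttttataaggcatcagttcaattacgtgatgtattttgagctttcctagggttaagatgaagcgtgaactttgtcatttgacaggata
Cd68: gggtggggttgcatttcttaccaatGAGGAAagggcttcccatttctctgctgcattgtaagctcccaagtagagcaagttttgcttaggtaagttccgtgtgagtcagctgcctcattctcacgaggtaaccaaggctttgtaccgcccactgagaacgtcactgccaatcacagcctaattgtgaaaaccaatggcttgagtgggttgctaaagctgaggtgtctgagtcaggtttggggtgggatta
Vsig4: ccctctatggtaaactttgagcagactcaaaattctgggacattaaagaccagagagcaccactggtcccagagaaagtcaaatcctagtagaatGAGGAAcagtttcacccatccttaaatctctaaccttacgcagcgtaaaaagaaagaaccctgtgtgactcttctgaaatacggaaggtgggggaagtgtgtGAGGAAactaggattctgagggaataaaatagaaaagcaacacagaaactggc
Timd4: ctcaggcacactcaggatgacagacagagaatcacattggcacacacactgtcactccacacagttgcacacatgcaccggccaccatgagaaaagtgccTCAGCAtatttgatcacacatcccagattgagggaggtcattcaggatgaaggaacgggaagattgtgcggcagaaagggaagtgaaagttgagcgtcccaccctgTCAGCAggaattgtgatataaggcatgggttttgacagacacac
Clec4f: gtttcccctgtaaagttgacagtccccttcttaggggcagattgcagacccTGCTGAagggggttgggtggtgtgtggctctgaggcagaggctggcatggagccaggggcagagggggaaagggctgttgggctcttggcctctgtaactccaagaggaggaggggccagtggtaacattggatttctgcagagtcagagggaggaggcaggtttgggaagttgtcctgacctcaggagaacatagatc
A window was on file for 9 members, with 2 starts for Folr2 and none for Adgre1. The bases after the Cd68 start were not found in its GENCODE M21 transcripts. Part of the Clec4f window lies inside the gene as annotated there, which reaches position 83656187. GAGGAA, on either strand, was present in 4 of these 9 genes (Cd68, Marco, Cd5l and Vsig4, which has it in 2 places). It was in 4 of the 10 member windows, and 23.3% of all 32851 windows of this length hold it. TGCTGA, on either strand, was present in 4 (Clec4f, Timd4, Cd5l and Folr2). It was in 5 of the 10 member windows, and 16.1% of all windows hold it. Neither was found in Clec1b or Cd163. The RBPJ motif GTGGGAA, through which Notch acts, the E-box CACGTG and the LXR element named DR4 were found in 0 of the 9 genes, and 5.42%, 6.02% and 0.0152% of all windows hold them. No 2 of the marked motifs overlap. These are matches of letters in a window and not sites shown to be bound.

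Among the C-type lectins, Clec1b had the smallest p of the 10 members. It encodes CLEC-2, the receptor for podoplanin, and is also expressed by platelets. Clec1b stood at 5.65, 5.65 and 4.87 CPM in PE-MP libraries 1, 2 and 3, against 2.30, 2.80 and 2.94 CPM in normal chow libraries 1, 2 and 3. The chows were well apart, with the lowest PE-MP library 1.66-fold above the highest normal chow library. The log2 fold change was 1.01 ± 0.18 (SE; 95% interval 0.57 to 1.44; edgeR adjusted p = 0.124), and with each library left out in turn it ran from 0.91 to 1.08. Without normal chow library 2, Clec1b passed the edgeR threshold (adjusted p = 0.0492), and the DESeq2 adjusted p on all 6 libraries was 0.000229; over the 16 refitted alternatives its adjusted p ranged from 0.000229 to 0.379. Platelet genes lay in both directions: of 7 tested, Clec1b among them, 3 were higher and 2 lower without overlap, and 3 had a positive log2 fold change. Of all 18043 tested genes, 14.2% were higher without overlap, 2125 were lower without overlap, and 9321 had a positive log2 fold change. Gp5, a platelet glycoprotein gene, had 15, 10 and 27 counts in PE-MP libraries 1, 2 and 3 and 0 counts in the normal chow libraries, and was at least 4.35-fold higher under PE-MP chow against a floor of 3 counts per library (edgeR adjusted p = 0.131). Pf4, a platelet chemokine, stood at 0.212 to 0.242 CPM in PE-MP libraries and 0.457 to 0.716 CPM in normal chow libraries (log2 fold change -1.32 ± 0.32; edgeR adjusted p = 0.144), and Ppbp, another, at 0.177 to 0.452 CPM in PE-MP libraries and 0.494 to 0.765 CPM in normal chow libraries (-0.91 ± 0.42; 0.314). The integrin gene Itga2b had a log2 fold change of -0.13 ± 0.21 (edgeR adjusted p = 0.784). Summed over the 11 platelet and megakaryocyte genes other than Clec1b, the level was 7.21 to 9.11 CPM in PE-MP libraries and 7.82 to 10.2 CPM in normal chow libraries, which overlap. The part of platelet RNA in the Clec1b value was not tested.

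Clec1b shares 474 bases and its strand with the annotated gene Clec9a, a lectin of dendritic cells, in GENCODE M21. The counts of Clec9a were 117, 101 and 146 in the PE-MP libraries and 31, 55 and 15 in the normal chow libraries, also without overlap. The counts do not show how reads in the shared stretch were assigned, so its part in either value was not tested. Clec1b had 534, 463 and 524 counts in the PE-MP libraries and 161, 168 and 298 in the normal chow libraries, above those of Clec9a in every library.

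Clec4f, which encodes the Kupffer cell lectin that binds galactose-ended glycans, stood at 54.8, 55.0 and 36.4 CPM in PE-MP libraries 1, 2 and 3, against 35.5, 25.3 and 33.97 CPM in the normal chow libraries. PE-MP libraries 1 and 2 were high, whereas library 3 lay only 1.02-fold above the highest normal chow library. This gave a log2 fold change of 0.63 ± 0.21 (SE; 95% interval 0.12 to 1.13; edgeR adjusted p = 0.210).

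Of the complement and scavenger receptors, Vsig4 was the clearest. It encodes CRIg, the receptor through which Kupffer cells take up particles coated with complement C3 fragments. Vsig4 stood at 21.3, 21.2 and 15.1 CPM in PE-MP libraries 1, 2 and 3, against 9.88, 10.7 and 13.7 CPM in the normal chow libraries. Every PE-MP library was above every normal chow library, the nearest pair by 1.10-fold. The log2 fold change was 0.75 ± 0.20 (95% interval 0.27 to 1.22; edgeR adjusted p = 0.159; DESeq2 adjusted p = 0.0352). C3 itself was on the list of ligands and partners, of which 0 of 16 tested genes passed.

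Cd163, the scavenger receptor for haptoglobin-haemoglobin complexes, stood at 6.73, 6.46 and 4.73 CPM in the PE-MP libraries, against 4.30, 1.23 and 3.42 CPM in normal chow libraries 1, 2 and 3. The chows did not overlap, and the low value of normal chow library 2 was 0.319 times the mean of the other 2 normal chow libraries. The log2 fold change was 0.9995 ± 0.44 (95% interval -0.05 to 2.05; edgeR adjusted p = 0.299), and 0.63 without normal chow library 2. Stab2, a scavenger receptor of sinusoidal endothelium, was also low in that library: it stood at 20.7 to 39.3 CPM in the PE-MP libraries and at 24.2, 4.33 and 20.1 CPM in normal chow libraries 1, 2 and 3. Normal chow library 2 is the one with the most Rn18s-rs5 counts, and the part of this in the Cd163 value was not tested.

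Marco, a scavenger receptor with a collagen-like domain that binds bacteria and uncoated particles, had the largest fold change of the 10 and the least even values. It stood at 27.2, 4.75 and 2.98 CPM in PE-MP libraries 1, 2 and 3, against 3.51, 3.54 and 1.61 CPM in normal chow libraries 1, 2 and 3. PE-MP library 1 was 7.04-fold above the mean of the other 2 PE-MP libraries, and PE-MP library 3 lay within the normal chow range. The raw counts were 2572, 389 and 321 under PE-MP chow and 246, 213 and 163 under normal chow. The log2 fold change of 2.01 ± 0.90 (95% interval -0.18 to 4.20; edgeR adjusted p = 0.309) fell to 0.42 (edgeR adjusted p = 0.697) without PE-MP library 1. The difference in Marco was thus carried by 1 library.

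Cd5l, the secreted scavenger protein of macrophages also called AIM, had the highest level of the 10. It stood at 64.2, 64.4 and 43.6 CPM in PE-MP libraries 1, 2 and 3, against 42.9, 33.7 and 48.4 CPM in the normal chow libraries. PE-MP library 3 lay within the normal chow range, so the chows overlapped. By edgeR the log2 fold change was 0.46 ± 0.21 (95% interval -0.03 to 0.95; edgeR adjusted p = 0.301).

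Timd4, the phosphatidylserine receptor with which resident macrophages bind dying cells, stood at 6.57, 3.90 and 3.60 CPM in PE-MP libraries 1, 2 and 3. In normal chow libraries 1, 2 and 3 it stood at 2.40, 2.48 and 1.06 CPM. The chows did not overlap, with PE-MP library 1 high and normal chow library 3 low within their chows. On the log2 scale the fold change was 1.25 ± 0.40 (95% interval 0.30 to 2.20; edgeR adjusted p = 0.198; DESeq2 adjusted p = 0.0469). It was 0.93 without PE-MP library 1 and 0.94 without normal chow library 3.

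Folr2, the beta folate receptor of tissue macrophages, was the member whose level differed least. Its level was 4.67, 3.97 and 3.30 CPM in PE-MP libraries 1, 2 and 3, against 3.67, 3.05 and 3.87 CPM in the normal chow libraries. The chows overlapped, and the log2 fold change of 0.17 ± 0.21 had a 95% interval of -0.32 to 0.66 (edgeR adjusted p = 0.687), which holds no change as well as a 1.58-fold higher level. Folr2 lies opposite the annotated gene Gm10602, which had 172, 124 and 140 counts in PE-MP libraries and 50, 54 and 126 in normal chow libraries. The library kit keeps the strand, per the labels, but the strand setting of the counting is not given in the sources used here, so reads of the pair may have been mixed.

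The general macrophage markers, Cd68 and Adgre1, had similar log2 fold changes but differed in spread and in overlap between chows. Cd68, a glycoprotein of late endosomes and lysosomes, had the smallest spread of the 10 under normal chow. It stood at 7.03, 6.75 and 5.90 CPM in the PE-MP libraries, against 4.24, 3.93 and 4.36 CPM in the normal chow libraries. Every PE-MP library was at least 1.35-fold above every normal chow library. Its log2 fold change was 0.65 ± 0.15 (95% interval 0.28 to 1.02; edgeR adjusted p = 0.140; DESeq2 adjusted p = 0.00818), and ran from 0.60 to 0.71 with each library left out in turn. Adgre1, which encodes a surface receptor of the adhesion G protein-coupled class long used to stain mouse macrophages, stood at 13.8, 9.77 and 7.42 CPM in PE-MP libraries 1, 2 and 3, against 6.32, 5.27 and 8.20 CPM in the normal chow libraries. PE-MP library 3 was below normal chow library 3, and the log2 fold change was 0.64 ± 0.27 (95% interval -0.01 to 1.30; edgeR adjusted p = 0.283).

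**Figure D2:**
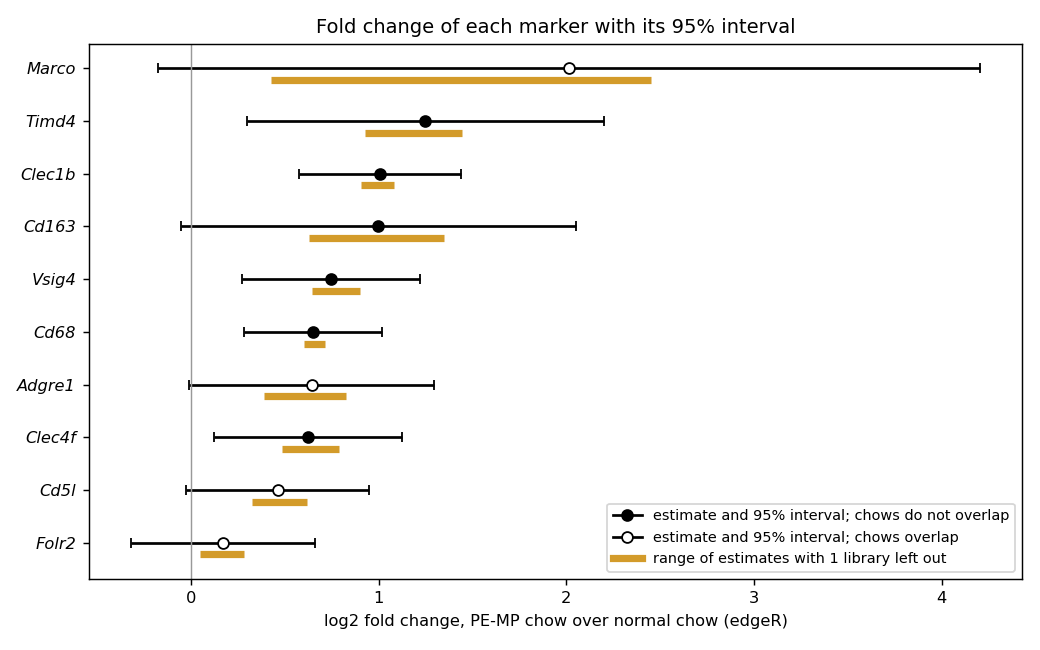
Log2 fold change of each marker, PE-MP chow over normal chow, by edgeR: points are estimates, black lines 95% intervals, and orange bars the range of estimates with 1 library left out. Filled points mark the 6 members whose chows do not overlap; the orange bar of Marco runs from 0.42 to 2.45 and that of Cd68 from 0.60 to 0.71.

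The members shared the low place of PE-MP library 3 within its chow, whereas the order of the other libraries varied. PE-MP library 3 was the lowest PE-MP library for 10 of 10 members, and PE-MP library 1 the highest for 7 and library 2 for 3. Normal chow library 2 was the lowest of its chow for 6 members, library 1 for 2 and library 3 for 2. The shares of all tested genes with these orders were not computed, so the counts are not read as a trait of the members. The 4 members with overlapping chows, Cd5l, Marco, Adgre1 and Folr2, overlapped through PE-MP library 3 alone. Without that library 10 of 10 members were higher without overlap, beside 18.3% of all tested genes, and 8 were higher at an unadjusted edgeR p under 0.05, beside 6.01%. Without PE-MP library 1, 3 of 10 were (Clec1b, Vsig4 and Cd68), beside 6.19%.

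Levels were compared between genes per kilobase of the longest principal transcript in GENCODE M21. Under PE-MP chow Cd5l averaged 28.2 ± 5.89 CPM per kilobase, Clec4f 19.7 ± 4.33 and Vsig4 13.4 ± 2.46 (SD, n = 3 libraries each). Under normal chow they averaged 20.5 ± 3.66, 12.8 ± 2.22 and 7.99 ± 1.42 CPM per kilobase (SD, n = 3). These were the highest 3 in both chows. Neighbours in the order overlapped in the PE-MP libraries, whereas in the normal chow libraries Cd5l, Clec4f and Vsig4 each stood clear of the next. The other 7 averaged 1.36 (Cd163) to 6.05 (Marco) CPM per kilobase under PE-MP chow and 0.677 (Cd163) to 3.40 (Cd68) under normal chow. Among these, in the PE-MP libraries Clec1b stood clear above Folr2, and Timd4 above Cd163, and the other neighbours in the order overlapped; in the normal chow libraries every neighbour overlapped the next. Clec4f and Cd5l together made up 56.2%, 65.7% and 62.5% of the counts of the 10 genes in PE-MP libraries 1, 2 and 3, and 68.2%, 64.1% and 67.8% in the normal chow libraries.

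Within a library, the ratio of a marker to the geometric mean of the other 9 does not depend on how libraries are scaled. The 2 members whose ratio separated the chows were Folr2 and Cd5l, both lower under PE-MP chow. Where nothing differs, a ratio separates 3 against 3 libraries, in either direction, with a probability of 0.1. The count of separated ratios is therefore not read as a result about the members. The log2 ratio of Folr2 was -1.72, -1.53 and -1.38 in the PE-MP libraries, against -0.90, -0.89 and -0.68 in the normal chow libraries. The means differed by -0.72 (2-sided exact permutation p = 0.1, the smallest that 3 against 3 libraries can give; 0.5 after adjustment over the 10 members). For Cd5l the log2 ratio was 2.48, 2.94 and 2.75 in the PE-MP libraries, against 3.04, 2.96 and 3.37 in the normal chow libraries, a difference in means of -0.40 (exact permutation p = 0.1; adjusted 0.5). For the other 8 members the ratios overlapped between chows. The ratio of Marco was 1.10 in PE-MP library 1, against -1.24 and -1.54 in the other PE-MP libraries and -0.97, -0.64 and -2.09 in the normal chow libraries.

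**Figure D3:**
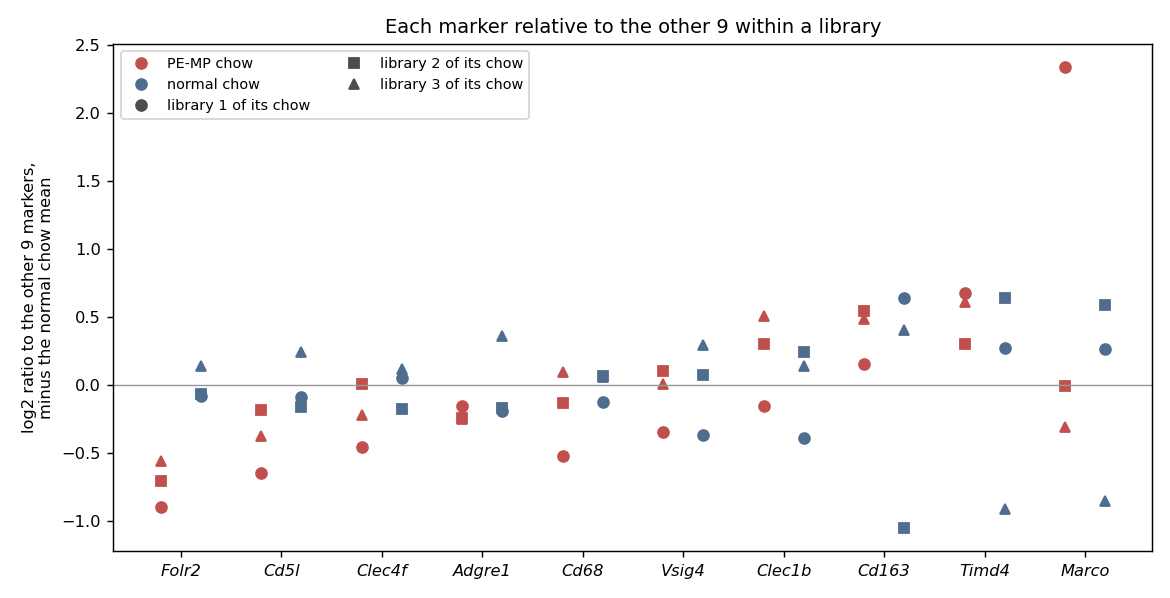
Log2 ratio of each marker to the geometric mean of the other 9 in the same library, with the normal chow mean of that marker set to 0; a symbol is 1 library, PE-MP chow left of normal chow. Folr2 and Cd5l are lower in every PE-MP library, and Marco in PE-MP library 1 stands apart.

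The summed level of the 10 markers was 212, 182 and 128 CPM in PE-MP libraries 1, 2 and 3, against 115, 92.0 and 122 CPM in the normal chow libraries. The PE-MP libraries averaged 174 ± 42.6 CPM and the normal chow libraries 110 ± 15.5 CPM (SD, n = 3 each), a 1.59-fold ratio. The size of the difference moved with the scaling: as CPM of all counts the average was 192 ± 39.1 in PE-MP libraries and 98.8 ± 15.6 in normal chow libraries, a 1.94-fold ratio. With mitochondrial rows and Rn18s-rs5 left out of the total it was 222 ± 52.1 in PE-MP libraries and 124 ± 11.0 in normal chow libraries, a 1.78-fold ratio. Scaling by total counts alone moved the log2 fold changes of all genes by a median of 0.30, and on that scale all 10 members, Folr2 included, were higher without overlap, beside 34.6% of all tested genes. Without Marco the TMM-scaled ratio was 1.52-fold.

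Sinusoidal endothelial genes lay in the same direction as the markers. All 18 genes of that list had a positive log2 fold change, with a median of 0.33, whereas 9321 of all 18043 tested genes had a positive one. Of the list, 0 passed the edgeR threshold and 4 were higher at an unadjusted p under 0.05, beside 9.1% of all tested genes. Their summed level was 372 to 458 CPM in PE-MP libraries and 282 to 333 CPM in normal chow libraries. Stab1, a scavenger receptor, stood at 25.2, 33.2 and 26.0 CPM in PE-MP libraries and 19.0, 15.3 and 13.1 CPM in normal chow libraries (log2 fold change 0.83 ± 0.19; edgeR adjusted p = 0.135), and Ptprb, a phosphatase of endothelium, had a log2 fold change of 0.47 ± 0.19 (0.259). Of the defining markers, Stab2 had a log2 fold change of 0.87 ± 0.62 (edgeR adjusted p = 0.491), and the lectin gene Clec4g stood at 21.9 to 29.3 CPM in PE-MP libraries and 16.9 to 23.6 CPM in normal chow libraries (log2 fold change 0.31 ± 0.18; edgeR adjusted p = 0.394). Counts of the 10 markers over those of the 18 endothelial genes were 0.567, 0.398 and 0.344 in the PE-MP libraries, against 0.346, 0.291 and 0.431 in the normal chow libraries, and overlapped. Ratios of the markers to the other lists overlapped between chows for some, such as the platelet genes, and not for others, such as the hepatocyte genes. The part of the endothelial genes in the result was not tested.

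**Figure D4:**
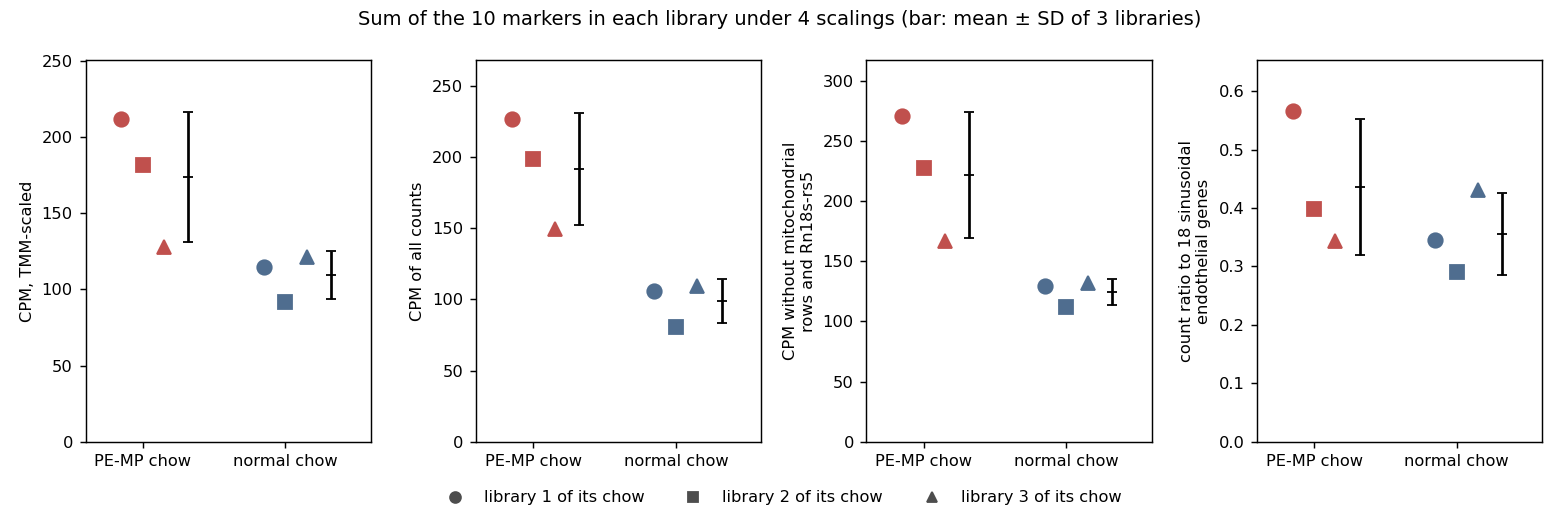
Sum of the 10 markers in each library as TMM-scaled CPM, CPM of all counts, CPM with mitochondrial rows and Rn18s-rs5 left out, and as a count ratio to 18 sinusoidal endothelial genes; bars are the mean and SD of 3 libraries, PE-MP chow left of normal chow. The chows are apart on the first 3 scales and overlap on the last, where PE-MP library 3 is at 0.344 and normal chow library 3 at 0.431.

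As a list, other genes of Kupffer cells and resident macrophages had a smaller median fold change than the 10 markers, although single genes did not. The list shares genes such as Mrc1 with the endothelial list, and the part of genes expressed by other cells in its median was not tested. Of 26 such genes tested, 0 passed, and the median log2 fold change was 0.25. A positive log2 fold change was found for 22, beside 9321 of all 18043 tested genes. At an unadjusted p under 0.05, 5 were higher, beside 9.1% of all tested genes, and 0 lower, beside 1591 of 18043. Mrc1, the mannose receptor shared with endothelium, had a log2 fold change of 0.76 ± 0.22 (edgeR adjusted p = 0.175), Mertk, which binds dying cells through bridging proteins, 0.52 ± 0.16 (0.187), and the potassium channel gene Kcna2 0.77 ± 0.28 (0.224). Csf1r, the receptor for the growth factor on which these cells depend, stood at 38.0, 35.9 and 25.5 CPM in PE-MP libraries and 25.3, 14.8 and 24.9 CPM in normal chow libraries (log2 fold change 0.61 ± 0.25; edgeR adjusted p = 0.274). The complement genes C1qa, C1qb and C1qc had log2 fold changes of 0.45 ± 0.23, 0.37 ± 0.22 and 0.42 ± 0.19, with overlapping chows and edgeR adjusted p of 0.350, 0.408 and 0.301.

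Regulators of Kupffer cell identity did not lie in 1 direction. Of 14 tested, 0 passed and 8 were positive, with a median log2 fold change of 0.069. Spic, a factor of macrophages that recycle iron, stood at 1.31, 0.830 and 0.809 CPM in PE-MP libraries and 0.257, 0.433 and 0.583 CPM in normal chow libraries (log2 fold change 1.20 ± 0.39; edgeR adjusted p = 0.198). Zeb2 had a log2 fold change of 0.55 ± 0.36 (edgeR adjusted p = 0.459) and Rxra, which hepatocytes also express, one of -0.48 ± 0.22 (0.311). Nr1h3, at 75.9 to 83.9 CPM under PE-MP chow and 77.3 to 97.6 CPM under normal chow, and Id3, at 31.6 to 69.7 CPM under PE-MP chow and 43.4 to 80.5 CPM under normal chow, overlapped between chows, and both are expressed by other liver cells too. Of 17 niche ligands and receptors, 0 passed, with a median of 0.18; the endothelial ligand Bmp2 had a log2 fold change of 0.66 ± 0.22 (edgeR adjusted p = 0.213), the Notch ligand Dll1 0.46 ± 0.19 (0.269) and the TGF-beta receptor Tgfbr2 -0.36 ± 0.14 (0.258).

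Of the 16 ligands and partners of the members, 0 passed, with a median of -0.058. Pdpn, the ligand of CLEC-2, stood at 0.112 to 0.169 CPM in PE-MP libraries and 0.178 to 0.666 CPM in normal chow libraries (log2 fold change -1.37 ± 0.59; edgeR adjusted p = 0.289). Lamp1, a membrane protein of lysosomes in all cells, had a log2 fold change of -0.32 ± 0.13 (edgeR adjusted p = 0.279), and the fatty acid synthase gene Fasn one of -0.89 ± 0.31 (0.220).

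Most markers of monocytes and of macrophages derived from them did not lie with the Kupffer cell markers. Summed over the 18 listed genes, the level was 873 to 1070 CPM in PE-MP libraries and 786 to 858 CPM in normal chow libraries. Among the genes of the list named below, the highest value was 7.94 CPM, for Fabp5 in normal chow library 1. The sum therefore rests mostly on other genes of the list, and which cells their RNA came from was not tested. Of 17 tested, 0 passed and 6 were positive, with a median log2 fold change of -0.17. Ly6c2, a surface protein of inflammatory monocytes, stood at 0.783, 0.513 and 0.735 CPM in PE-MP libraries and 1.37, 1.63 and 1.17 CPM in normal chow libraries (log2 fold change -1.04 ± 0.27; edgeR adjusted p = 0.155). Ccr2, the chemokine receptor of the same cells, had a log2 fold change of 0.92 ± 0.41 (edgeR adjusted p = 0.297), the lipid chaperone gene Fabp5 one of -1.98 ± 0.47 (0.140), and Trem2, of lipid-associated macrophages, one of 0.11 ± 0.43 (0.918). The difference between this list and the markers was not tested.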

How the data were processed

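The members and lists were chosen with earlier results of these data known. Raw read counts per gene, 1 column per library, were used as the authors deposited them; the table of the series equals the per-library files on all 56674 rows. Per the labels' protocols, RNA was poly(A)-selected and libraries were made with a kit that keeps the strand. The submitters' processing notes name bcl2fastq and the build GRCm39. Which aligner, counting program and annotation were used is not given in the sources used here. Groups came from the sample titles.

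The test was edgeR 4.0.16 (R 4.3.3; quasi-likelihood F test, robust, TMM factors, default expression filter) on the whole table, with Benjamini-Hochberg adjustment and a threshold of 0.05, and checked on simulated counts. Standard errors are the coefficient over the root of F, and 95% intervals use the t distribution on the fit's degrees of freedom. CPM values were computed from the counts and TMM factors. Ratios between members used exact permutation in SciPy 1.17.1. Alternatives used DESeq2 1.42.0, limma-voom (limma 3.58.1), other factors and filters, an adjusted p of 0.1, the replicate number as a block, and each library left out. All 10 members, and of each other list the up to 3 genes with the smallest p, with fixed defining markers, were named. Csf1r, C1qa, C1qb, C1qc, Nr1h3, Id3 and Ly6g from the lists, Clec9a and Gm10602, which overlap members, and Rn18s-rs5 were named outside this rule.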

Additional observations from a re-analysis of the deposited data

How the results depend on the processing

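The sign of the fold change of each of the 10 members was positive in all 16 refitted alternatives, 160 values in all, of which 155 stayed on the same side of the threshold and 5 passed it: Clec1b, Vsig4, Timd4 and Cd68 by DESeq2, and Clec1b without normal chow library 2. The median log2 fold change of the members lay between 0.57 and 0.86 with 1 library left out. Members called higher numbered 4 by DESeq2 and 0 to 1 with 1 library left out, and 0 were called lower throughout. Members higher at an unadjusted p under 0.05 numbered 9 with total counts only (25.2% of all genes tested there), 8 by DESeq2 (9.54%), 8 with no expression filter (7.1%) and 3 to 8 with 1 library left out (5.72% to 14.7%). Members higher without overlap numbered 10 with total counts only (34.6% of all genes) and 6 to 10 with 1 library left out (17.2% to 25.8%). Over all genes, edgeR called 2 higher and 1 lower with RLE factors, 10 higher with total counts only, 15 and 8 with no expression filter, 11 and 11 with a CPM of at least 1 in a whole group, and 24 and 29 at an adjusted p of 0.1. DESeq2 called 559 higher and 627 lower, and limma-voom 6 and 9. With 1 library left out, 1 to 452 genes were called higher and 0 to 623 lower, most of them without normal chow library 2. Ratios that separated the chows numbered 2 to 4 with 1 library left out, with 4 reached without PE-MP library 1 and without normal chow library 2. With fewer libraries a ratio separates more readily where nothing differs, so these counts are not read as a result. The summed ratio was 1.41 to 1.80 with 1 library left out. The cause of these moves was not tested.

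The labels do not say whether the replicate numbers pair the libraries. Deviations of same-numbered libraries from their chow mean correlated at 0.0027, 0.040 and 0.136 over 18043 genes. The value for the libraries numbered 3 was the highest of any pair, whereas PE-MP library 1 correlated best with normal chow library 2 (0.120). Deviations within a chow are tied to each other, so these values cannot decide on a pairing. With the replicate block, edgeR called 0 genes higher and 0 members, whose smallest adjusted p was 0.243, and the same 5 members had an unadjusted p under 0.05.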

Other observations

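The genes whose levels over the 6 libraries were most like the mean profile of the 10 markers were Mib2, Mink1, Tmem132a, C3ar1 and Gm44291. Likeness was the root mean square difference between log2 levels centred on the gene's own mean, which was 0.0847 for Mib2, 0.0956 for Mink1, 0.115 for Tmem132a, 0.126 for C3ar1, the receptor for complement C3a, and 0.128 for Gm44291. The members themselves ranged from 0.174 for Clec4f to 0.898 for Marco on this measure. The other genes were picked for the smallest values among all tested genes, so lying closer than the members follows from the pick. Gm44291 had only 7 to 32 counts in a library. Mib2, the closest, had a log2 fold change of 0.87 (edgeR adjusted p = 0.141), and its counts were 1271, 1004 and 899 in the PE-MP libraries and 463, 337 and 653 in the normal chow libraries.

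Lymphoid, stromal and granulocyte markers gave other directions, with 0 genes passing the edgeR threshold in any of these lists. The 9 B cell and plasma cell genes had a median log2 fold change of -0.77, with the smallest p for Cd79a (-1.37 ± 0.31; edgeR adjusted p = 0.137) and larger differences for the plasma cell genes Mzb1 (-2.66 ± 0.66; 0.147) and Jchain (-3.38 ± 0.82; 0.150), and their summed level was 9.40 to 13.5 CPM in PE-MP libraries and 22.0 to 65.4 CPM in normal chow libraries. The 9 tested T cell and NK cell genes had a median of -0.75, with log2 fold changes of -1.24 ± 0.45 for Cd8a (edgeR adjusted p = 0.231), -0.85 ± 0.33 for Nkg7 (0.252) and 0.89 ± 0.33 for Klrb1c (0.236). The 10 stellate cell and fibroblast genes had one of -0.41, with -0.75 ± 0.27 for the collagen gene Col1a2 (0.221), -0.75 ± 0.29 for Col3a1 (0.246) and -1.37 ± 0.50 for Pdgfrb (0.237). Of 8 listed neutrophil genes, the 5 tested had a median of 1.21, with 1.53 ± 0.27 for S100a9 (edgeR adjusted p = 0.124), 1.21 ± 0.34 for Csf3r (0.173) and 0.997 ± 0.39 for S100a8 (0.252). The summed level of the list was 3.42 to 4.27 CPM in PE-MP libraries and 1.38 to 1.93 CPM in normal chow libraries. Ly6g, also on the list, had 0 counts in every library. The 6 tested dendritic cell genes had a median of 0.45, with 0.72 ± 0.43 for Batf3 (edgeR adjusted p = 0.415) and 1.01 ± 1.003 for Xcr1 (0.626) beside Clec9a. The 5 tested peritoneal and capsular macrophage genes had one of 0.22, with 0.65 ± 0.50 for Garnl3 (0.525), 0.50 ± 0.34 for Prg4 (0.474), 0.22 ± 0.23 for Icam2 (0.651) and -0.11 ± 0.15 for Gata6 (0.720). The 11 hepatocyte genes had one of -0.031, with -0.73 ± 0.29 for the apolipoprotein gene Apoa2 (0.260), -0.42 ± 0.18 for Ttr (0.281) and 0.24 ± 0.20 for the urea cycle gene Cps1 (0.557). The 7 tested platelet genes had a median of -0.015, also with Gp5 at its bound.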
